A study of Mus musculus with 6 samples.

Results

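Glycolysis and the response to low oxygen were followed through 39 named genes in chondrocytes, the matrix-producing cells of cartilage, from wild-type mice. The genes were taken by name, with earlier results of these data known, and all 39 were found among its 26969 genes and passed the filter that left 17645 genes for testing. They comprise 16 glycolytic enzymes, 4 transporters of glucose or lactate, 3 regulators of flux, 6 genes of oxygen sensing and 10 genes known to respond to hypoxia. Aldoa names 2 rows of the table. The row of the aldolase A gene, at chr7:126795234-126800751 on GRCm38, was used; the other, the neighbouring gene ENSMUSG00000114515, was listed at 56 to 99 counts per library.

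The study compared chondrocytes that had received mitochondria with chondrocytes that had not, and its title names osteocytes as the source of the mitochondria. Poly(A) RNA was sequenced from 3 libraries in each of 2 groups, called here mAC_Mito and mAC after the description field and the column names. The other labels go against these names. The mAC_Mito libraries are titled vehicle and have vehicle as their treatment entry, whereas the titles and treatment entries of the mAC libraries give mitochondria. Both groups are of wild-type genotype, the labels used here state no age, dose or duration, and no difference below is given as an effect of mitochondria. Every difference is mAC_Mito minus mAC, and values given 3 to a group stand in the order of libraries 1, 2 and 3. The labels do not say whether the replicates are separate cultures or animals; p-values therefore reflect only the spread among these libraries, which may be technical.

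Glycolysis splits glucose into pyruvate in the cytosol, and lactate dehydrogenase turns pyruvate into lactate with return of the NAD+ that the pathway uses. Cartilage has no blood vessels, and its cells live at low oxygen and draw much of their ATP from glycolysis. Where oxygen is plentiful, prolyl hydroxylases mark the alpha subunits of hypoxia-inducible factor (HIF) for destruction through the von Hippel-Lindau protein; where it is scarce, HIF accumulates and raises transcription of glycolytic enzymes, glucose transporters, Vegfa and many others through DNA elements built around the letters ACGTG or GCGTG.

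Libraries held 59116068 to 68378213 counts. Each of 13 chondrocyte markers averaged at least 1 FPKM (counts per kilobase of gene model, scaled to library depth by the authors), and the markers summed to 2440 to 3520 FPKM in mAC_Mito and 2540 to 3060 FPKM in mAC. Of the other cell types, 8 of 13 skeletal muscle markers, 5 of 12 macrophage and leukocyte markers, 7 of 8 adipocyte markers and none of 9 endothelial or 6 erythroid markers averaged at least 1 FPKM. Their sums were 48.8 to 58.5 FPKM in mAC_Mito and 37.6 to 56.8 FPKM in mAC for muscle, 74 to 119 FPKM in mAC_Mito and 66.2 to 84.5 FPKM in mAC for macrophages and leukocytes, 93 to 113 FPKM in mAC_Mito and 68 to 109 FPKM in mAC for adipocytes, 0.415 to 0.490 FPKM in mAC_Mito and 0.341 to 0.446 FPKM in mAC for endothelium, and at most 0.405 FPKM in mAC_Mito and 0.412 FPKM in mAC for erythroid cells. The 13 messenger RNAs of the mitochondrial genome took 5.60%, 2.91% and 3.40% of counts in mAC_Mito and 7.31%, 4.71% and 3.13% in mAC. In such bulk samples, fewer cells of a type and less RNA per cell cannot be told apart.

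The promoters of 4 genes are shown because they hold the letters to which HIF is known to bind. Slc2a1 and Pdk1 were also picked because their groups did not overlap on CPM, although they overlapped on FPKM. CPM are counts scaled to a common library size, here with TMM factors. The 4 promoters are RefSeq sequence of GRCm38.p6, upstream of the start that the deposited table gives for the gene, at chrX:106186850-106187099 (+ strand), chr4:119108495-119108710 (+ strand), chr2:71872974-71873223 (+ strand) and chr8:45999868-46000100 (- strand). Capitals mark ACGTG or GCGTG read on either strand, so that CACGT and CACGC are the same letters on the opposite strand.
Pgk1: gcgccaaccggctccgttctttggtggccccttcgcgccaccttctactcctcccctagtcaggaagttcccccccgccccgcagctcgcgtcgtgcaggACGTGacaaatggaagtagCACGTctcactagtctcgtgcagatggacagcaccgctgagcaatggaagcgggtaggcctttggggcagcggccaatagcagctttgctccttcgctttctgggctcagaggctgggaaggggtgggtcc
Slc2a1: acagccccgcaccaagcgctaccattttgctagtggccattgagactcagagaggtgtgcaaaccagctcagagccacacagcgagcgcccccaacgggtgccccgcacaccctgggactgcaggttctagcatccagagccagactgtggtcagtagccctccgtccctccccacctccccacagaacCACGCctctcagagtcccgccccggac
Pdk1: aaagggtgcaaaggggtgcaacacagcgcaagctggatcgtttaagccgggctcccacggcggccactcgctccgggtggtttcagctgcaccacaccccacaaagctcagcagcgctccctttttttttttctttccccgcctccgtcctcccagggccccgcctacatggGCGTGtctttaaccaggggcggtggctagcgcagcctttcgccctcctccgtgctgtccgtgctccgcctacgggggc
Ankrd37: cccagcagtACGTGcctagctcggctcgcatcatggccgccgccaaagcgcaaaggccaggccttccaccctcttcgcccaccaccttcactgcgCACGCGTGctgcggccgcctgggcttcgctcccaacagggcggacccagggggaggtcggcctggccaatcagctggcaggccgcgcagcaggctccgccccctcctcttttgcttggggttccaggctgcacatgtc
Pgk1, which encodes phosphoglycerate kinase, carried 2 such matches, Slc2a1 and Pdk1 carried 1 each, and Ankrd37 carried 3, of which the last 2 overlap. The printed Slc2a1 and Ankrd37 sequences stop at the start given in the deposited table, which leaves out the last bases before the RefSeq start and with them 1 further match in each; over the full 250 bases Slc2a1 held 2 and Ankrd37 4. A RefSeq promoter was matched by symbol for 35 of the 39 genes, all but Epas1, Slc2a3, Ndrg1 and Bhlhe40. Over the 250 bases upstream of the RefSeq start, with overlapping matches each counted, 25 of the 35 (71.4%) held at least 1 match and 15 (42.9%) at least 2. Among all 32851 RefSeq promoters, 38.6% held at least 1 and 16.7% at least 2. Of the 4033 promoters of genes with at least 50 CPM, for this set without TMM factors, 60.0% held at least 1 and 30.2% at least 2. Both backgrounds count every RefSeq promoter of a gene, whereas each of the 35 genes gave only the promoter nearest its deposited start. That promoter's RefSeq start lay 4329 bases from the deposited start for Ldha and 6492 bases for Hif1a. For 26 of the 35, the bases just after the RefSeq start were found in a transcript of the gene. By role, matches were present in 11 of 16 enzyme promoters, all 3 transporter promoters, all 3 promoters of flux regulators, 3 of 5 of oxygen sensing and 5 of 8 of the hypoxia-responsive genes. A match is a description of these letters and not of a bound site.

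None of the 39 genes differed between the groups past the threshold. With edgeR's quasi-likelihood test and Benjamini-Hochberg adjustment over all 17645 genes, 0 of 39 had an adjusted p under 0.05, against a background of 2 genes (0.0113%; 0.00567% higher and 0.00567% lower in mAC_Mito), and each of the 39 had an adjusted p of 0.99992. Unadjusted, 0 of 39 had p under 0.05, against 563 genes (3.19%; 2.1% higher and 1.09% lower in mAC_Mito) of the genes tested. DESeq2 and limma also called 0 of 39 and found 0 with an unadjusted p under 0.05. The lowest unadjusted p was 0.0788, for Mxi1.

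Log2 fold changes were below 0 for 26 of the 39 genes (66.7%) and above 0 for 13, against 49.6% below 0 over all genes tested. Their median was -0.068, against 0.0016 over all genes tested, and they ran from -0.33 for Ankrd37 to 0.43 for Slc2a3. The 95% interval of every gene held 0. The median interval reached 0.26 to either side of its estimate on the log2 scale. These intervals are for single genes and are not adjusted for the number of genes tested. For a typical gene of the set, an estimate smaller than 0.26 would therefore not have reached an unadjusted p under 0.05. The threshold on the adjusted p asks for a larger estimate, so true shifts above 0.26 could also have been missed.

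**Figure D1:**
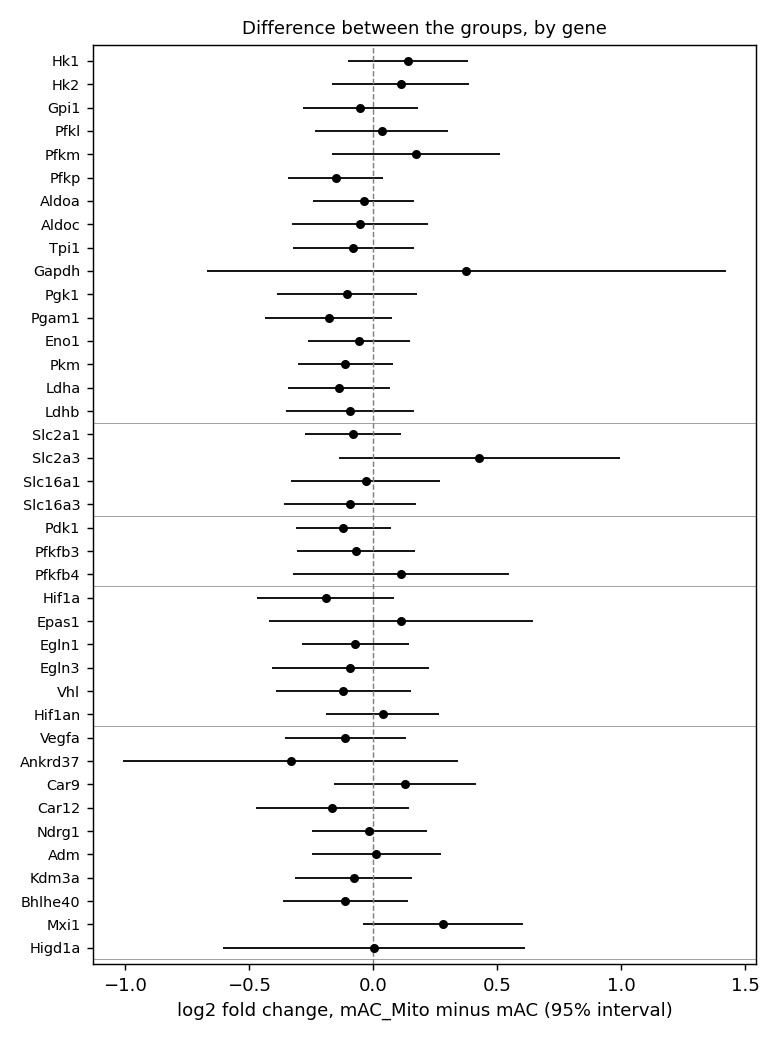
Log2 fold change of each of the 39 genes, mAC_Mito minus mAC (horizontal axis), with the 95% interval from edgeR's quasi-likelihood test; genes run down the page by role. All 39 intervals hold 0, and those of Gapdh, Higd1a, Ankrd37 and Slc2a3 are the widest.

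On CPM, the 2 groups had no overlap in 6 of 39 genes (15.4%), against 8.31% of all genes tested (3.93% higher and 4.38% lower in mAC_Mito). Slc2a3 was higher in all 3 mAC_Mito libraries than in any mAC library, and Pfkp, Pkm, Ldha, Slc2a1 and Pdk1 were lower in all 3. DESeq2's size factors gave the same 6 genes, with a background of 8.39%. On the FPKM scale the groups did not overlap for 3 of 39 genes (7.69%), against 7.31% of all genes tested (3.76% higher and 3.54% lower): Slc2a3 was again higher in mAC_Mito, and Pgam1 and Hif1a were lower. Slc2a3 was the single gene of both sets.

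**Figure D2:**
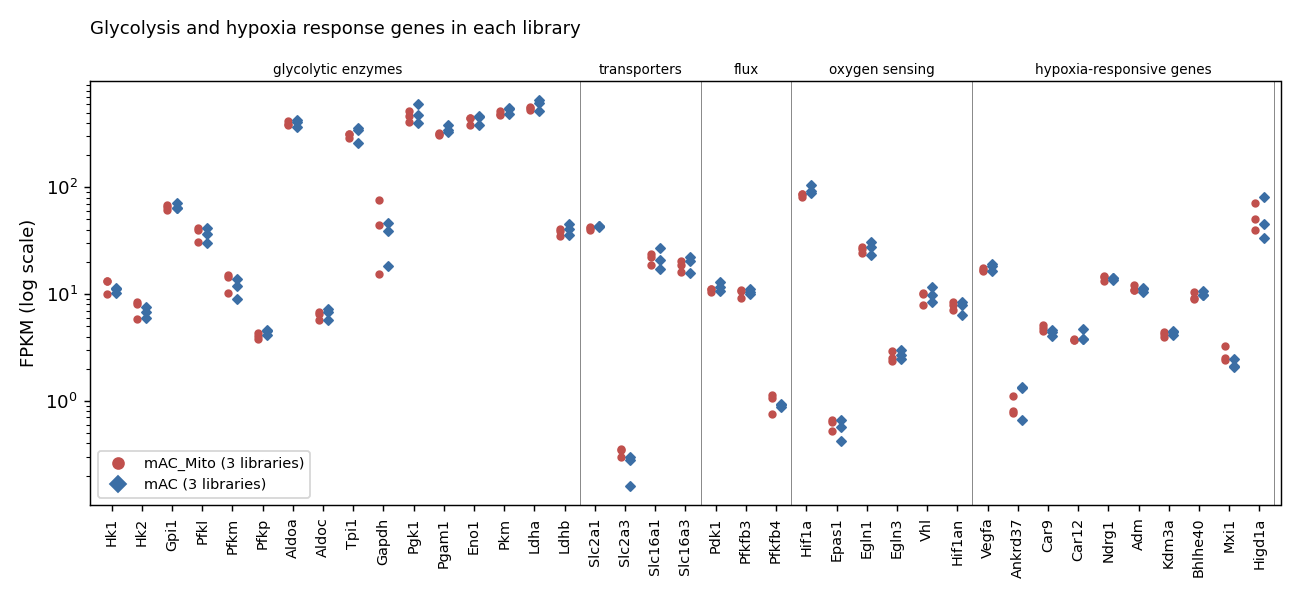
FPKM of the 39 genes in each library on a log axis, with genes along the horizontal axis by role; circles are the 3 mAC_Mito libraries and diamonds, to their right, the 3 mAC libraries. Ldha, Pkm, Pgk1, Eno1 and Aldoa are the highest, Slc2a3 is the lowest, and Gapdh has the widest spread of the enzymes, from 15.3 to 75.6 FPKM. Gapdh is plotted by its own row alone.

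Of the glycolytic enzymes, 7 were among the 122 tested genes with the highest mean FPKM. In descending order of mean FPKM these were Ldha, Pkm, Pgk1, Eno1, Aldoa, Pgam1 and Tpi1. The other enzymes were below them, Gapdh by its own row. Together the 16 enzymes took 1.28%, 1.33% and 1.33% of counts in mAC_Mito, against 1.27%, 1.42% and 1.47% in mAC. These shares leave out the genes that resemble Gapdh, described below, which held 211419 to 276054 counts per library. Of the 16, 5 had a log2 fold change above 0 and 11 below, with a median of -0.053.

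Hexokinase, which traps glucose in the cell as glucose 6-phosphate, was present in 2 forms, Hk1 at 10.0 to 13.4 FPKM and Hk2 at 5.90 to 8.43 FPKM over the 6 libraries. Their log2 fold changes were 0.14 and 0.11, and the groups overlapped for both. Gpi1, which interconverts glucose 6-phosphate and fructose 6-phosphate, had 65.6, 61.2 and 68.5 FPKM in mAC_Mito, against 64.2, 71.1 and 64.1 FPKM in mAC. Its log2 fold change was -0.05 (SE 0.10, 95% interval -0.28 to 0.18). In FPKM the highest and the lowest mAC_Mito library lay on either side of mAC libraries 1 and 3, and the groups also overlapped on CPM.

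Phosphofructokinase commits the sugar to glycolysis and is built from the liver-type, muscle-type and platelet-type subunits Pfkl, Pfkm and Pfkp. Pfkl had 30.8, 41.9 and 39.4 FPKM in mAC_Mito, against 30.0, 36.7 and 41.1 FPKM in mAC, with a log2 fold change of 0.04 (SE 0.12, 95% interval -0.23 to 0.30). In both groups library 1 was the lowest, and the groups overlapped. Pfkp had 3.76, 4.28 and 4.09 FPKM in mAC_Mito, against 4.18, 4.50 and 4.58 FPKM in mAC. On the depth-scaled counts it had 60.7, 63.9 and 62.2 CPM in mAC_Mito, against 69.5, 69.4 and 68.4 CPM in mAC, so that every mAC_Mito library lay below every mAC library, with a log2 fold change of -0.15 (SE 0.09, 95% interval -0.34 to 0.04). Pfkp overlaps Pitrm1 on the opposite strand over 748 bases. Pfkm ran over 9.08 to 15.1 FPKM and had a log2 fold change of 0.17, the opposite sign to Pfkp. Pfkm overlaps Senp1 on the opposite strand over 1156 bases. Markers of skeletal muscle, in which Pfkm is the main form, summed to 48.8 to 58.5 FPKM in mAC_Mito and 37.6 to 56.8 FPKM in mAC. Of these 13 markers 8 averaged at least 1 FPKM, led by Acta1 and Tnnt3 at 16.2 FPKM each. Others were low, such as Ckm at 0.222 FPKM and Myod1 at 0.413 FPKM. The part of any muscle RNA in the Pfkm value was not tested.

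Aldolase splits fructose 1,6-bisphosphate into the 2 triose phosphates. Its main form Aldoa had 383, 388 and 414 FPKM in mAC_Mito, against 367, 422 and 410.5 FPKM in mAC, and Aldoc ran over 5.68 to 7.22 FPKM. The groups overlapped for both, with log2 fold changes of -0.04 (SE 0.09, 95% interval -0.24 to 0.17) for Aldoa and -0.05 for Aldoc. Triose phosphate isomerase, encoded by Tpi1, brings both triose phosphates into the same form and had 288, 314 and 316 FPKM in mAC_Mito, against 258, 340.5 and 362 FPKM in mAC. The 3 mAC_Mito libraries lay between the lowest and the highest mAC library, with a log2 fold change of -0.08 (SE 0.11, 95% interval -0.32 to 0.16).

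The later steps of the pathway, which recover ATP, start with Gapdh, described separately below because many genes of the table nearly match its sequence. Pgk1, which makes the first ATP of the pathway, had 410.2, 518 and 467 FPKM in mAC_Mito, against 401, 479 and 603 FPKM in mAC. Its mAC libraries spread more widely than its mAC_Mito libraries and enclosed them, and the log2 fold change was -0.10 (SE 0.13, 95% interval -0.39 to 0.18). Pgam1, which moves the phosphate group of 3-phosphoglycerate, had 322, 309.8 and 312 FPKM in mAC_Mito, against 378, 339.5 and 332 FPKM in mAC. Every mAC_Mito library was below every mAC library in FPKM, although on CPM, at 767, 683 and 702 CPM in mAC_Mito, against 929.6, 774 and 731 CPM in mAC, the groups overlapped. The log2 fold change of Pgam1 was -0.18 (SE 0.11, 95% interval -0.43 to 0.08), the lowest of the 16 enzymes.

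Eno1, the enolase that makes phosphoenolpyruvate, had 386, 443 and 443 FPKM in mAC_Mito, against 384, 455 and 466 FPKM in mAC. Library 1 was the lowest of both groups, and the groups overlapped with a log2 fold change of -0.05 (SE 0.09, 95% interval -0.26 to 0.15). Pkm, the pyruvate kinase gene of most tissues, had 476, 515 and 489 FPKM in mAC_Mito, against 486, 541 and 553 FPKM in mAC. The groups overlapped in FPKM. On CPM it had 2868, 2863 and 2776 CPM in mAC_Mito, against 3009, 3111 and 3075 CPM in mAC, without overlap, and a log2 fold change of -0.11 (SE 0.09, 95% interval -0.30 to 0.08). A gene on the same strand, Gm49759, overlaps Pkm over 3887 bases and was itself listed at 2118 to 3004 counts, so reads could be divided between both gene models.

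Lactate dehydrogenase is a tetramer of the A subunit, which favours lactate formation, and the B subunit. With Gapdh taken by its own row, Ldha had the highest mean FPKM of all 39 genes. It had 527, 564 and 557 FPKM in mAC_Mito, against 521, 615 and 654 FPKM in mAC. In FPKM mAC library 1 was the lowest of the 6. On CPM Ldha had 2099.7, 2076 and 2091 CPM in mAC_Mito, against 2138, 2343 and 2408 CPM in mAC, so all mAC_Mito libraries were below all mAC libraries, and its log2 fold change was -0.14 (SE 0.09, 95% interval -0.34 to 0.07). Ldhb had 40.5, 35.3 and 39.3 FPKM in mAC_Mito, against 35.6, 45.6 and 40.3 FPKM in mAC, with overlapping groups and a log2 fold change of -0.09 (SE 0.12, 95% interval -0.35 to 0.16).

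Gapdh, which encodes glyceraldehyde 3-phosphate dehydrogenase and is widely used as a reference gene, stood apart from the other enzymes in its spread between libraries. It had 15.3, 44.5 and 75.6 FPKM in mAC_Mito, against 18.3, 45.8 and 38.6 FPKM in mAC. The highest library was mAC_Mito 3 and the lowest mAC_Mito 1, so the spread within mAC_Mito took in the whole of mAC. The CPM of Gapdh spanned 4.66-fold over the 6 libraries, a wider range than in 93% of genes tested, whereas the other 15 enzymes spanned 1.12-fold to 1.49-fold. Its log2 fold change was 0.38 (SE 0.47, 95% interval -0.67 to 1.42), and it was -0.22 without mAC_Mito library 3 and 0.77 without mAC_Mito library 1.

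The mouse genome carries many processed copies of Gapdh. A stretch of 80 bases from the start of the Gapdh open reading frame is shown with the same stretch of 4 copies, from GENCODE M21 transcripts, to let the likeness be seen. Gapdh lies on chromosome 6 and the copies on chromosomes 7, 5, 4 and 15, in the order given. Capitals mark bases that differ from Gapdh.
Gapdh: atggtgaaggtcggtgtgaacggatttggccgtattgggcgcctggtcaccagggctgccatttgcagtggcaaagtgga
Gm7336: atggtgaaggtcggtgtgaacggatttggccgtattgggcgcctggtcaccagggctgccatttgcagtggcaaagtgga
Gm5559: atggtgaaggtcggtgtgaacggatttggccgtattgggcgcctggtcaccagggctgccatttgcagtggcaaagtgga
Gm12671: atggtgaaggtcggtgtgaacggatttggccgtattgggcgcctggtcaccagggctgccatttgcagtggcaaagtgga
Gm16374: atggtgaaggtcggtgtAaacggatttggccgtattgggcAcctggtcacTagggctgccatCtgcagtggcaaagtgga
Of the copies, 3 match Gapdh at all 80 bases and Gm16374 differs at 4. Of the 100-base windows of the longest coding Gapdh transcript, 78% occur without a mismatch in a transcript of another gene. A search of transcripts with blastn (at least 90% identity over at least 200 bases) found 119 other genes of the table that resemble Gapdh, of which 26 reach 99% identity; the 119 include Peli2, a coding gene of another function.

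Gapdh itself was listed with 4823, 12457 and 21709 counts in mAC_Mito, against 5345, 14932 and 11388 counts in mAC. The 119 genes together held 248683, 211419 and 217327 counts in mAC_Mito, against 231780, 276054 and 248697 counts in mAC, which is 10.0 to 51.6 times the counts of Gapdh. Gm7336 alone held 30845, 26240 and 27379 counts in mAC_Mito, against 28239, 35095 and 30681 counts in mAC, more than Gapdh in every library. Summed over Gapdh and these genes, the level was 4000.3, 3677 and 3901 CPM in mAC_Mito, against 4169.6, 4249.5 and 4047 CPM in mAC, and the range over the 6 libraries narrowed to 1.16-fold. The summed log2 fold change was -0.11 (SE 0.09, 95% interval -0.31 to 0.09), with an adjusted p of 0.99964 by edgeR's quasi-likelihood test. If all these counts were of Gapdh, its level would be 812 ± 17.9 FPKM in mAC_Mito and 862 ± 43.3 FPKM in mAC (SD, n = 3 each), above that of Ldha. How reads that fit several genes were counted is not given in the sources used here; the deposited Gapdh row therefore cannot be read as the level of its mRNA.

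**Figure D3:**
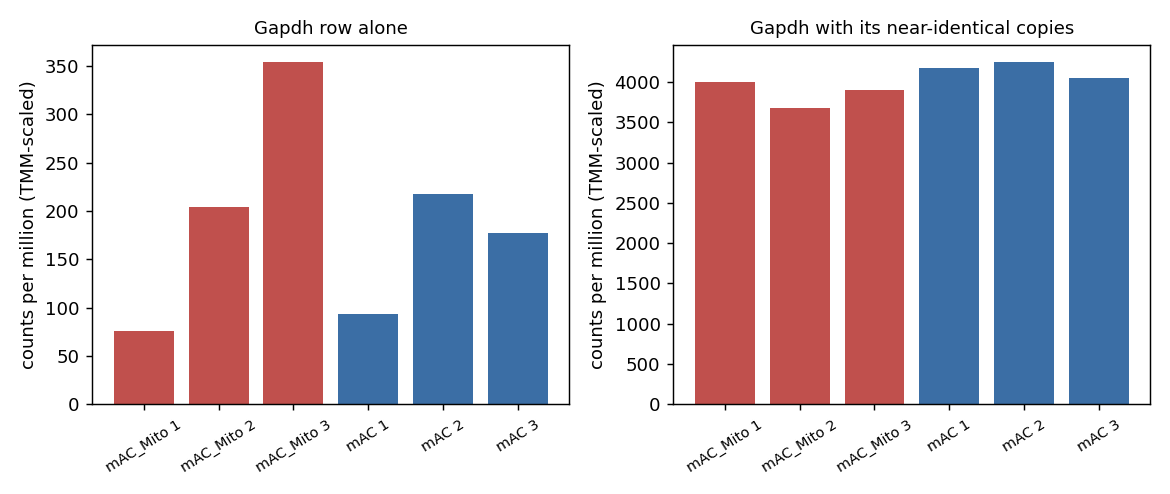
TMM-scaled CPM in each library, mAC_Mito libraries left of mAC libraries, for the Gapdh row alone (one panel) and for Gapdh summed with its 119 similar genes (other panel); bars start at 0. The row alone spans 4.66-fold and the sum 1.16-fold.

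Other enzymes shared sequence with copies too, with far fewer counts on the copies. Exact 100-base windows shared with another gene made up 67% of the Pgk1 transcript, 59% of Eno1 and 39.7% of Pgam1, and under 10% of each remaining gene of the 39. The copies held 0.116 to 0.128 times the counts of Eno1, 0.0331 to 0.0401 times those of Pgk1 and 0.0465 to 0.0822 times those of Pgam1. With copies added, the log2 fold changes were -0.06 for Eno1, -0.10 for Pgk1 and -0.19 for Pgam1, against -0.05, -0.10 and -0.18 for the rows alone. With the copies of every gene summed in this way, 12 of the 16 enzymes were below 0.

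The glucose transporters bring in the substrate, and the monocarboxylate transporters carry lactate. Slc2a1, which encodes the basal transporter GLUT1, had 40.0, 41.5 and 42.2 FPKM in mAC_Mito, against 42.2, 43.3 and 43.4 FPKM in mAC. In FPKM the groups overlapped by a narrow margin. On CPM Slc2a1 had 168.6, 161.8 and 168.0 CPM in mAC_Mito, against 183.2, 174.7 and 169.3 CPM in mAC, without overlap, and its log2 fold change was -0.08 (SE 0.09, 95% interval -0.28 to 0.11). Slc2a3, which encodes the high-affinity transporter GLUT3, was low, with 0.347, 0.353 and 0.299 FPKM in mAC_Mito, against 0.161, 0.282 and 0.298 FPKM in mAC. It had 194, 175 and 151 counts in mAC_Mito, against 83, 162 and 155 counts in mAC. The lowest library was mAC 1, and the gap between mAC_Mito 3 and mAC 3 was small, so the lack of overlap rests on narrow margins. Its log2 fold change of 0.43 (SE 0.25, 95% interval -0.14 to 0.99) had an unadjusted p of 0.122 and an adjusted p of 0.99992 by edgeR's quasi-likelihood test.

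Slc16a1 (MCT1) had 18.8, 23.6 and 22.3 FPKM in mAC_Mito, against 17.2, 21 and 27.2 FPKM in mAC. Its mAC libraries enclosed the mAC_Mito libraries, and the log2 fold change was -0.03 (SE 0.13, 95% interval -0.33 to 0.27). Slc16a3 (MCT4), the lactate exporter of glycolytic cells, ran over 15.6 to 22.1 FPKM with a log2 fold change of -0.09. Of the 4 transporters, 3 had values below 0, with a median of -0.055.

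Of the flux regulators, Pdk1 encodes a kinase that switches off pyruvate dehydrogenase and so keeps pyruvate from the mitochondria. It had 10.5, 11.2 and 11.1 FPKM in mAC_Mito, against 10.7, 11.6 and 12.9 FPKM in mAC. On CPM it had 98.1, 97.1 and 98.2 CPM in mAC_Mito, against 103, 104 and 111 CPM in mAC. The mAC_Mito libraries lay close together below all 3 mAC libraries, with a log2 fold change of -0.12 (SE 0.09, 95% interval -0.31 to 0.07). Pfkfb3 and Pfkfb4 make fructose 2,6-bisphosphate, the activator of phosphofructokinase. They ran over 9.23 to 11.3 FPKM and 0.762 to 1.14 FPKM, their groups overlapped, and their log2 fold changes were -0.07 and 0.11. The median of the 3 regulators was -0.068.

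Hif1a, the oxygen-regulated subunit of HIF-1, was the most abundant of the oxygen-sensing genes, with 87.3, 86.4 and 80.8 FPKM in mAC_Mito, against 105, 92.2 and 88.1 FPKM in mAC. All mAC_Mito libraries were below all mAC libraries in FPKM. On CPM it had 619, 567 and 540.2 CPM in mAC_Mito, against 768, 625 and 577 CPM in mAC, where mAC library 3 fell between mAC_Mito libraries 1 and 2 and the groups overlapped. The log2 fold change was -0.19 (SE 0.12, 95% interval -0.47 to 0.08) and was -0.060 without mAC library 1, the library with the highest share of mitochondrial mRNA (7.31%); the part of that share in the result was not tested. Gm15283 overlaps Hif1a on the opposite strand over 46156 bases and held at most 51 counts in a library.

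Epas1, which encodes HIF-2 alpha, was listed at 0.663, 0.640 and 0.526 FPKM in mAC_Mito, against 0.668, 0.567 and 0.422 FPKM in mAC. It had a log2 fold change of 0.11 (SE 0.24, 95% interval -0.42 to 0.65), with overlapping groups. Hif1a made up 99.2% to 99.5% of the summed FPKM of Hif1a and Epas1. These are mRNA levels, and HIF alpha subunits are known to be regulated mainly through protein stability.

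The prolyl hydroxylase Egln1 (PHD2), the main oxygen sensor acting on HIF-1 alpha, had 24, 26.6 and 27.8 FPKM in mAC_Mito, against 23.3, 27.7 and 30.5 FPKM in mAC. Egln3 (PHD3), itself a HIF target, had 2.38, 2.91 and 2.51 FPKM in mAC_Mito, against 2.69, 2.47 and 3.01 FPKM in mAC. The groups overlapped for both, with log2 fold changes of -0.07 (SE 0.10, 95% interval -0.29 to 0.15) for Egln1 and -0.09 (SE 0.14, 95% interval -0.41 to 0.22) for Egln3. Vhl, which encodes the recognition subunit of the HIF ubiquitin ligase, ran over 7.94 to 11.8 FPKM, and Hif1an, which encodes an asparaginyl hydroxylase that limits HIF activity, ran over 6.32 to 8.39 FPKM. Their log2 fold changes were -0.12 and 0.04. Of the 6 genes 4 were below 0 and 2 above, with a median of -0.081.

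The 10 hypoxia-responsive genes had 4 log2 fold changes above 0 and 6 below, with a median of -0.046, and their groups overlapped on CPM and on FPKM in every case. Vegfa, which encodes a growth factor of blood vessels, had 17, 16.4 and 17.5 FPKM in mAC_Mito, against 18.3, 19.3 and 16.5 FPKM in mAC. Its mAC library 3 lay among the mAC_Mito libraries, and the log2 fold change was -0.11 (SE 0.11, 95% interval -0.35 to 0.13). Higd1a, which encodes a small protein of the mitochondrial inner membrane, had 40.2, 70.8 and 50.4 FPKM in mAC_Mito, against 33.4, 45.3 and 81.1 FPKM in mAC. Library 1 was the lowest in both groups and the highest library was mAC 3. Its CPM spanned 2.18-fold over the libraries and its log2 fold change was 0.01 (SE 0.27, 95% interval -0.60 to 0.61), moving between -0.21 without mAC_Mito library 2 and 0.39 without mAC library 3.

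The carbonic anhydrases Car9 and Car12 act at the cell surface, where they help to keep pH steady in acid-producing cells. Car9 had 4.50, 5.19 and 4.83 FPKM in mAC_Mito, against 4.63, 4.38 and 4.03 FPKM in mAC, and Car12 had 3.82, 3.70 and 3.71 FPKM in mAC_Mito, against 4.74, 3.84 and 3.78 FPKM in mAC. For Car9 mAC_Mito library 1 was below mAC library 1 and the groups overlapped; for Car12 mAC library 1 stood above the other 5 libraries. The log2 fold changes had opposite signs, 0.13 (SE 0.13, 95% interval -0.16 to 0.42) for Car9 and -0.16 (SE 0.14, 95% interval -0.47 to 0.14) for Car12.

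The remaining hypoxia-responsive genes were Ndrg1, a stress-responsive gene, and 5 others. Ankrd37 encodes an ankyrin-repeat protein, Adm a vasodilator peptide, Kdm3a a histone demethylase, Bhlhe40 a transcriptional repressor tied to the circadian clock, and Mxi1 an antagonist of Myc. These 6 genes averaged between 1.01 FPKM for Ankrd37 and 14 FPKM for Ndrg1 over the 6 libraries. Log2 fold changes of Ndrg1, Adm, Kdm3a and Bhlhe40 ran from -0.11 for Bhlhe40 to 0.01 for Adm. Ankrd37 and Mxi1, singled out after their values were seen, had the lowest and the highest fold change of the 10. Ankrd37, with 97, 117 and 84 counts in mAC_Mito, against 74, 164 and 152 counts in mAC, had a log2 fold change of -0.33 (SE 0.30, 95% interval -1.01 to 0.34). It overlaps Ufsp2 and Lrp2bp on the opposite strand. Mxi1 had 2.41, 2.50 and 3.30 FPKM in mAC_Mito, against 2.11, 2.46 and 2.06 FPKM in mAC, with a log2 fold change of 0.28 (SE 0.14, 95% interval -0.04 to 0.60). The highest library for Mxi1 was mAC_Mito 3, and mAC library 2 lay between mAC_Mito libraries 1 and 2.

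Differences between libraries ran across the groups. Libraries 1 of both groups were the lowest 2 of the 6 for 7 of the 16 enzymes (43.8%), namely Hk2, Pfkl, Pfkm, Tpi1, Gapdh, Pgk1 and Eno1, and for 13 of all 39 genes (33.3%), against 13.6% of all genes tested and 19.4% of those with at least 50 CPM, all on CPM. On FPKM the counts were 11 of 16 (68.8%) and 18 of 39 (46.2%), against 25% of all genes tested. The further 6 genes on CPM were the lactate transporters Slc16a1 and Slc16a3, the oxygen-sensing genes Egln1, Vhl and Hif1an, and Higd1a. Gapdh entered these counts by its own row. Summed with its similar genes, it was lowest in mAC_Mito library 2, at 3677 CPM. The sum was 4000.3 CPM in mAC_Mito library 1 and 4169.6 CPM in mAC library 1, so the libraries numbered 1 were then not its lowest 2. The same 2 libraries held the highest shares of mitochondrial mRNA in the set, 5.60% and 7.31%; its part in this pattern was not tested. Libraries numbered alike are not known to be paired.

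The enzymes and the hypoxia-responsive genes had different medians from library to library. The median deviation of the 16 enzymes from their own mean log2 CPM was -0.076, -0.040 and 0.025 in mAC_Mito, against -0.060, 0.079 and 0.061 in mAC. For the 10 hypoxia-responsive genes it was 0.020, -0.063 and -0.011 in mAC_Mito, against 0.12, -0.019 and -0.088 in mAC. The median of the enzymes was thus lowest in the libraries numbered 1. By gene on CPM, the lowest library was mAC_Mito 1 for 7 of the 16 enzymes, mAC_Mito 2 for 6 and mAC 1 for 2. For another 2 enzymes mAC 1 was the highest. On CPM mAC library 1 had the highest median for the hypoxia-responsive genes. It was the highest library for 5 of those 10 genes (Vegfa, Car12, Adm, Kdm3a and Bhlhe40) and for 21.7% of all genes tested, and was tied with mAC_Mito library 1 for Ndrg1. This depends on the scale. On FPKM mAC library 1 was the highest for 3 of the 10 (Car12, Kdm3a and Bhlhe40), against 12.3% of all genes tested. The FPKM medians of the 10 were -0.035, -0.0062 and 0.019 in mAC_Mito, against 0.019, -0.0096 and -0.030 in mAC, where all genes tested had -0.052, 0.072 and 0.046 in mAC_Mito, against -0.092, 0.021 and 0.064 in mAC. Those of the enzymes remained lowest in the libraries numbered 1, at -0.13 in mAC_Mito and -0.16 in mAC. No test was made of this contrast.

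**Figure D4:**
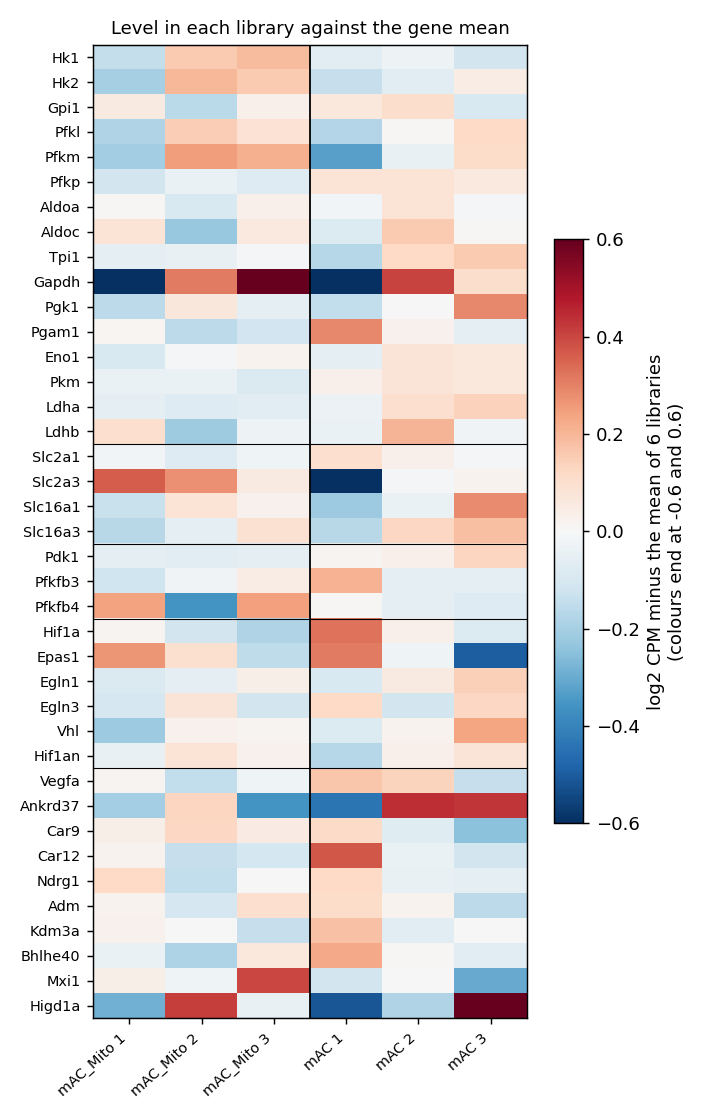
Log2 CPM of each of the 39 genes minus its mean over the 6 libraries, mAC_Mito libraries left of the black line and mAC libraries right of it, genes down the page by role; red is above the mean, blue below, and colours end at -0.6 and 0.6. For 7 of the 16 enzymes, Gapdh by its own row among them, the 2 libraries numbered 1 are the lowest, while 5 of the 10 hypoxia-responsive genes are highest in mAC library 1 on this CPM scale (3 of 10 on FPKM) and Ndrg1 is tied between it and mAC_Mito library 1.

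Because several steps are served by more than 1 gene, the share of the summed FPKM held by a given form was compared over libraries. Of 11 shares in 10 families, none passed a two-sided exact permutation test with Benjamini-Hochberg adjustment over the 11; the lowest adjusted p was 0.275, and 3 against 3 libraries cannot give an exact p under 0.1. Car9 held 54.1%, 58.3% and 56.6% of the sum of Car9 and Car12 in mAC_Mito, against 49.4%, 53.3% and 51.6% in mAC. The groups did not overlap, with 56.3% ± 2.11 in mAC_Mito and 51.5% ± 1.96 in mAC (SD, n = 3 each), a difference of 4.89 percentage points with an exact permutation p of 0.1. Pfkl held 68.4% ± 0.420 of phosphofructokinase in mAC_Mito and 69.2% ± 0.117 in mAC (SD, n = 3 each; exact permutation p = 0.1). The shares of Slc2a1 over Slc2a3 and of Hif1a over Epas1 also did not overlap, with differences of -0.233 and -0.139 percentage points. In these families the smaller gene was low, at a mean of 0.290 FPKM for Slc2a3 and 0.581 FPKM for Epas1. How often shares of other gene families do not overlap was not counted. The Pfkm share was 24.1% ± 1.19 in mAC_Mito and 22.2% ± 1.07 in mAC (SD, n = 3 each), with an exact permutation p of 0.2. In all 6 libraries the most abundant form of its family was Hk1, Pfkl, Aldoa, Ldha, Slc2a1, Slc16a1, Pfkfb3, Hif1a and Egln1.

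**Figure D5:**
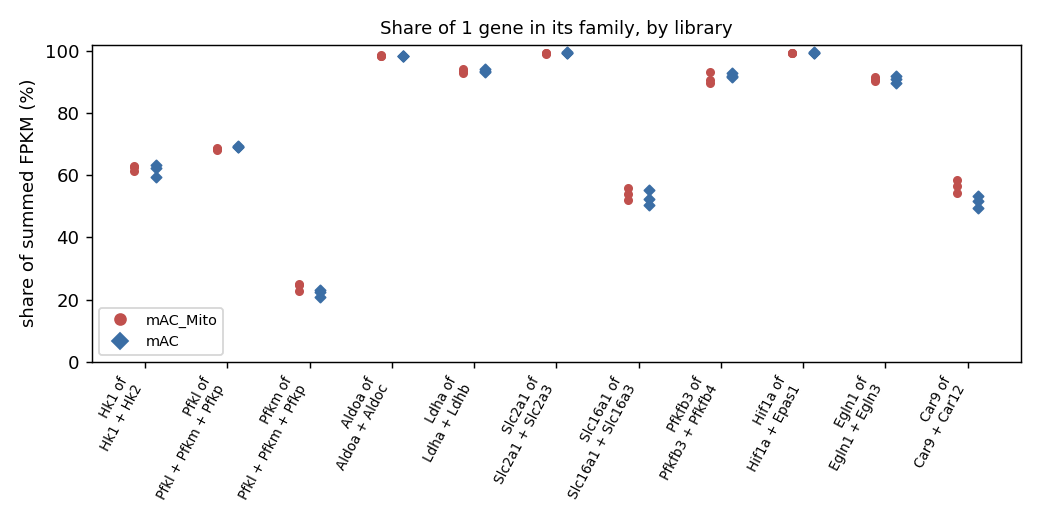
Share of 1 gene in the summed FPKM of its family (vertical axis, percent), by library; circles are mAC_Mito and diamonds mAC. Car9 of Car9 and Car12 shows the widest gap between group means, 4.89 percentage points.

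Further genes of these pathways were taken from 3 lists of names. Of 32 other glycolysis genes found in the table, 30 were tested, 14 with a log2 fold change above 0 and 16 below (median -0.050). Of 15 genes of the pentose phosphate pathway and glycogen all were tested, 7 above 0 and 8 below (median -0.0020). Of 36 other HIF pathway genes 33 were tested, 10 above 0 and 23 below (median -0.039). By edgeR's quasi-likelihood test 0 of these 78 had an adjusted p under 0.05 and 1 had an unadjusted p under 0.05; DESeq2 and limma on log2(FPKM + 1) also called 0, with 2 and 1 under 0.05 unadjusted. The groups did not overlap on CPM for 10 of the 78, 1 higher and 9 lower in mAC_Mito, beside the 8.31% of all genes tested (3.93% higher and 4.38% lower). Of these 10, the groups overlapped on FPKM for Adpgk, Pdk3, Rpe and P4ha1. Hkdc1, Slc16a8, Hif3a, Nos2 and Epo did not pass the filter on low counts.

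The most abundant gene of each list was Bsg, Ugp2 and Lox. Bsg, which encodes the partner protein that brings lactate transporters to the cell surface, had 634, 609 and 615 FPKM in mAC_Mito, against 571, 690.1 and 695 FPKM in mAC, a log2 fold change of -0.09. Ugp2, which makes the UDP-glucose for glycogen, had 51.4, 56.8 and 50.4 FPKM in mAC_Mito, against 48.2, 55.9 and 58.4 FPKM in mAC, a log2 fold change of -0.05. Lox, a HIF target that crosslinks collagen, had 454, 541 and 543 FPKM in mAC_Mito, against 660.3, 581 and 562 FPKM in mAC, a log2 fold change of -0.26. The groups overlapped for Bsg and Ugp2, whereas every mAC_Mito library was below every mAC library for Lox. The 95% interval of Lox, -0.53 to 0.01, held 0.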

How the data were processed

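The authors deposited 1 table with a raw read count and an FPKM value per gene and library, per the file headers. Per the submitters' processing notes, HISAT2 2.0, StringTie 1.3.0, Bowtie 0.12.2 and the build mm8 were named, without roles; the counting rule and its use of strand were not given in the sources used here. For all 39 genes at least 1 end matched GENCODE M21 (both ends for 32), so positions are given on GRCm38. Depth was 59116068 to 68378213 counts per library.

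The 39 genes and the lists were chosen with earlier results of these data known. Counts were fitted with edgeR 4.0.16 (filterByExpr, minimum count 10, minimum total 15; TMM; quasi-likelihood test) in R 4.3.3 over all groups, two-sided, with Benjamini-Hochberg adjustment over 17645 genes and a threshold of 0.05, after tests on simulated data. Intervals are those implied by the F statistic. DESeq2 1.42.0, limma 3.58.1 on log2(FPKM + 1) and log2(FPKM + 0.1), other scalings and filters, a replicate block, and each library left out were alternatives. Similar genes were found with blastn 2.17.0 in GENCODE M21 transcripts. Values for each library are given for genes averaging at least 20 FPKM, those without overlap between groups, those with unadjusted p under 0.05, and Hif1a, Epas1, Egln1, Egln3, Vegfa, Car9 and Car12; of the further lists, those with unadjusted p under 0.05 or the highest mean FPKM. A result under this rule is not reported here. The labels' RNA protocol speaks of an adipose type while the source is chondrocytes.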

Additional observations from a re-analysis of the deposited data

How the results depend on the processing

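None of the 39 genes passed the threshold under any alternative run: DESeq2's or upper-quartile scaling, DESeq2, limma with a pseudocount of 1 or 0.1, no filter, a floor of 5 FPKM in at least 3 libraries (29 of the genes tested), a replicate block, each library left out, and copies summed into their gene, the last chosen after seeing the data. The lowest adjusted p of the 39 over the alternatives was 0.72348 (edgeR without mAC_Mito library 1). Without that library 2 of the 39 had an unadjusted p under 0.05, as did 1 without mAC_Mito library 2 and 1 without mAC library 1. The 78 further pathway genes likewise gave 0 under every alternative they were run in. Over all genes, edgeR's 2 calls became 4 with DESeq2, 1 with limma and a pseudocount of 1, 0 without a filter (760 with unadjusted p under 0.05), 0 with the 5 FPKM floor (149 with unadjusted p under 0.05), and 0 to 4 with a library left out; the cause was not tested. The median log2 fold change of the 16 enzymes stayed below 0, from -0.094 to -0.015 with a library left out. That of the 10 hypoxia-responsive genes was -0.046, and -0.020 and -0.025 with limma at a pseudocount of 1 and 0.1, -0.0094 with the FPKM floor (fewer genes), and -0.10 to 0.0001 with a library left out. The highest value came without mAC library 1. Of the 39 signs, 6 changed without mAC library 1, 5 without mAC_Mito library 2, 4 without mAC library 3, and at most 2 under any other setting. The alternatives for the isoform shares say nothing of their stability, since none could give an exact p under 0.1, or under 0.25 with libraries paired by number.

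Libraries with the same number are not known to be paired: their deviations correlated at 0.124, -0.060 and -0.012, and mAC_Mito library 2 correlated best with mAC library 3 (0.154). With the replicate block edgeR called 2 genes, 0 of the 39 and 0 of the 78, the medians were -0.054 for the enzymes and -0.046 for the hypoxia-responsive genes, and no call among the 39 or the 78 changed. Depth limits Slc2a3 and Ankrd37, with 74 to 194 counts in a library.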
